A study of Mus musculus with 17 samples.

Results

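The 10 genes described here are Tfrc, Slc11a2, Steap3, Fth1, Ftl1, Ncoa4, Ireb2, Aco1, Slc25a37 and Slc25a38. They act in the uptake, storage and sensing of iron or in its use by mitochondria, where Slc25a38 carries glycine for heme synthesis. They are 10 of the 35321 genes of a table of raw read counts and were chosen by name, as a set that includes Tfrc. Tfrc itself was selected on its measured fall between 24 h and 72 h of lipopolysaccharide, so its values in those libraries are given below as a description, with no test. All 10 genes passed the filter on low counts that left 14920 genes to test.

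RNA with poly(A) tails was sequenced from hematopoietic stem and progenitor cells (HSPC), which sit at the root of blood formation in the marrow. They were sorted by flow cytometry from wild-type C57BL/6J mice, an inbred strain, and gave 17 libraries. The PBS group (5 libraries, titled day 0) received phosphate-buffered saline. The other groups, of 3 libraries each, received lipopolysaccharide (LPS, part of the outer wall of bacteria and a trigger of inflammation) by injection into the abdominal cavity, alone or with a blocking antibody against the receptor for interleukin-10 (IL-10R), and marrow was taken at 24 h or at 72 h. The amounts are given as 5 ug of LPS and 100 ug of antibody in one text and as 5 mg and 100 mg in another, and neither was taken as correct. The age and sex of the mice were not analysed here. None of the 17 libraries is labelled as given the antibody without LPS. An effect of the antibody itself and its effect on the LPS response therefore cannot be told apart. No PBS library is labelled as taken at 24 h or 72 h, so in changes from PBS, LPS and time after injection cannot be told apart. The labels do not say that each library is a separate mouse, so p-values measure the spread between these libraries, which may be partly technical.

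Levels are given as CPM, a gene's count as a share of its library's total, where each total was first multiplied by a scaling factor of the trimmed mean method (TMM). Library totals ran from 10516722 to 16006001 counts. TMM factors ran from 0.947 to 1.12 except in LPS 24 h library 1, which stood apart at 0.799, so results that rest on that library are given with and without it. Both 24 h libraries numbered 1 are named without the brackets used for the other libraries given LPS, and the labels do not say why. The labelled cell type was checked against its markers: Kit, the stem cell factor receptor, was at 228 to 589 CPM and Cd34 at 234 to 848 CPM over the 17 libraries. The 10 HSPC markers read together did not hold level between groups. With LPS at 24 h 0 were called higher and 7 lower by edgeR (6 without LPS 24 h library 1), and with LPS plus antibody at 24 h 1 (Ly6a) higher and 6 lower. Of all genes tested, 37.6% and 24.2% were called in these comparisons. Cd34 went from a mean of 691 CPM in PBS to 399 with LPS at 24 h, and the log2 change of Flt3, a progenitor cytokine receptor, was -2.45 (adjusted p = 0.00113). The summed level of the 10 was 1613 to 2440 CPM in PBS, 936 to 1109 with LPS at 24 h, 1060 to 1391 with LPS plus antibody at 24 h, 1656 to 2222 with LPS at 72 h and 1088 to 1733 with LPS plus antibody at 72 h. In bulk RNA, fewer cells of a type and less RNA per cell cannot be told apart.

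Cells take up iron mainly as transferrin bound to the receptor encoded by Tfrc. In the endosome, the ferrireductase Steap3 reduces the released iron and the transporter encoded by Slc11a2 (DMT1) moves it into the cytosol. There it is stored in ferritin, a shell of heavy (Fth1) and light (Ftl1) chains that the cargo receptor Ncoa4 delivers to lysosomes when iron is needed, or it enters mitochondria through carriers such as mitoferrin 1 (Slc25a37) for heme and iron-sulfur clusters. When iron is scarce, the RNA-binding proteins IRP1 (Aco1, a cytosolic aconitase when it holds an iron-sulfur cluster) and IRP2 (Ireb2) bind hairpins called iron-responsive elements (IRE). An IRE in the 5′ untranslated region (UTR) blocks translation, whereas those in the 3′ UTR of Tfrc protect the message from decay.

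The IREs are shown because IRPs act on translation through sites in a 5′ UTR and on message level through those of Tfrc. The data here are message levels. The transcripts of 21875 protein-coding genes (GENCODE, build GRCm38) were searched on the transcript strand for a C, then 5 bases, then CAGTGN, then 5 bases that pair with the first 5, G-T pairs allowed. A match in a UTR was found in 155 genes, 0.709% of those searched, of which 28 had one in the 5′ UTR and 127 in the 3′ UTR. Of the 10 members, 3 had a match: Tfrc had 4 in its 3′ UTR, and Fth1 and Ftl1 had 1 each in the 5′ UTR. The sites are printed 5′ to 3′ as DNA, with the loop in capitals.
Tfrc site 1: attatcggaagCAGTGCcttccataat
Tfrc site 2: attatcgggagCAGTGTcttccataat
Tfrc site 3: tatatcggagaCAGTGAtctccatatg
Tfrc site 4: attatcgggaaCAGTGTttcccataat
Fth1 site: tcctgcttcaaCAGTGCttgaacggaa
Ftl1 site: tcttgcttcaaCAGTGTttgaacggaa

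On GRCm38 the Tfrc sites lie on the plus strand at chr16:32631220-32631246, chr16:32631599-32631625, chr16:32631664-32631690 and chr16:32631711-32631737, in the gene's 3′ UTR (gene chr16:32608920-32632794). The Fth1 site lies at chr19:9982733-9982759 on the plus strand (gene chr19:9980598-9985098) and the Ftl1 site at chr7:45459780-45459806 on the minus strand (gene chr7:45457944-45459884). The other 7 members had no match, which says only that these letters with this pairing were not in their annotated UTRs. An IRE of another form would be missed, so these members may still hold one. They lie at chr15:100387898-100425072 (Slc11a2), chr1:120190757-120272705 (Steap3), chr14:32159865-32179855 (Ncoa4), chr9:54863789-54912530 (Ireb2), chr4:40143081-40198338 (Aco1), chr14:69241848-69285112 (Slc25a37) and chr9:120110374-120124504 (Slc25a38). A match is a description of sequence and was not tested for binding.

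In PBS, the ferritin messages were the most abundant of the members when levels were set per length. Ftl1 stood at 1391 CPM per kilobase of its principal transcript and Fth1 at 547. Ncoa4 followed at 45.9 CPM per kilobase, Tfrc at 31.2, Slc25a37 at 21.1, Ireb2 at 13.3, Aco1 at 11.5, Slc25a38 at 9.78, Slc11a2 at 8.50 and Steap3 at 7.04. The members also differed in how far they moved over the 17 libraries. Tfrc spanned 8.29-fold from its lowest to its highest library, Slc11a2 4.22-fold and Steap3 2.89-fold, whereas Ireb2 spanned 1.81-fold and Slc25a37 1.61-fold. The share of the variance of log2 CPM that lay between the 5 groups was 81.6% for Steap3, 66.4% for Tfrc and 65.0% for Slc11a2. For the ferritin chains it was 7.06% (Fth1) and 4.07% (Ftl1), so their spread was almost all between libraries of the same group.

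The transferrin uptake genes were the members that stood highest above PBS after LPS at 24 h. Tfrc, the transferrin receptor, was at 216, 138, 142, 154 and 111 CPM in the PBS libraries. It was at 399, 233 and 651 CPM with LPS at 24 h and at 94.8, 86.7 and 102 CPM with LPS at 72 h. The 24 h libraries all lay above PBS and the 72 h libraries all lay below it. The PBS mean was 152 ± 39.2 CPM (SD, n = 5). Means after LPS were 428 ± 210 CPM at 24 h and 94.5 ± 7.55 CPM at 72 h (SD over 3 libraries each), a log2 change from PBS of 1.49 and of -0.69, and of -2.18 from 24 h to 72 h. These values chose the gene and are not tested.

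With the antibody, in libraries the choice of Tfrc did not use, Tfrc was at 492, 719 and 154 CPM at 24 h and at 424, 181 and 222 CPM at 72 h. At 24 h libraries 1 and 2 were above every PBS library and library 3 lay inside the PBS range. The mean was 455 ± 285 CPM (SD, n = 3), and the log2 change from PBS was 1.58 (SE 0.40, adjusted p = 0.0135, edgeR quasi-likelihood test). Without library 2 the change was 1.08 and the adjusted p = 0.106, so the call rested on that library. At 72 h the mean was 276 ± 130 CPM (SD, n = 3), with a log2 change from PBS of 0.86 (SE 0.402, adjusted p = 0.157) and ranges that overlapped. Between 24 h and 72 h with the antibody the log2 difference was -0.72, with overlapping ranges (SE 0.459, adjusted p = 0.918), so the fall by which Tfrc was chosen did not pass the test in these libraries.

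By group mean, Tfrc was highest with LPS plus antibody at 24 h, followed by LPS at 24 h, LPS plus antibody at 72 h, PBS and LPS at 72 h. Neighbours in that order overlapped in their libraries, except PBS and LPS at 72 h. At 72 h the antibody libraries were all above those with LPS alone, by 1.55 on the log2 scale, and at 24 h the corresponding difference was 0.09 with overlapping ranges. These differences use the libraries that chose Tfrc and have no test.

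Slc11a2, the endosomal iron transporter, followed the same course at a lower level. It was at 32.5, 24.0, 26.3, 25.3 and 20.4 CPM in PBS, at 53.2, 38.0 and 65.1 CPM with LPS at 24 h and at 18.97, 16.1 and 16.1 CPM with LPS at 72 h. All 3 libraries at 24 h were above PBS and all 3 at 72 h were below it. The mean went from 25.7 ± 4.39 CPM (SD, n = 5) to 52.1 ± 13.6 (SD, n = 3) at 24 h, a log2 change of 1.02 (SE 0.292, adjusted p = 0.0133, edgeR). Without LPS 24 h library 1 the change was 1.02 (adjusted p = 0.0450), and without library 3 it was 0.83 and was no longer called (adjusted p = 0.0704). At 72 h the mean was 17.04 ± 1.67 CPM (SD, n = 3), with a log2 change from PBS of -0.59 (SE 0.309, adjusted p = 0.477).

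Steap3, the endosomal ferrireductase, changed most evenly. It was at 42.5, 27.2, 38.2, 42.5 and 31.2 CPM in PBS, at 63.7, 61.9 and 63.0 CPM with LPS at 24 h and at 25.5, 23.2 and 24.0 CPM with LPS at 72 h. The 24 h libraries spanned 1.03-fold, all above PBS, and the 72 h libraries lay below every PBS library. The mean went from 36.3 ± 6.85 CPM (SD, n = 5) to 62.9 ± 0.881 (SD, n = 3) at 24 h, a log2 change of 0.79 (SE 0.179, adjusted p = 0.00362, edgeR). It was called in 15 of 15 alternative settings, including without LPS 24 h library 1 (0.79, adjusted p = 0.0161). At 72 h the log2 change was -0.59 (SE 0.187, adjusted p = 0.270).

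**Figure D1:**
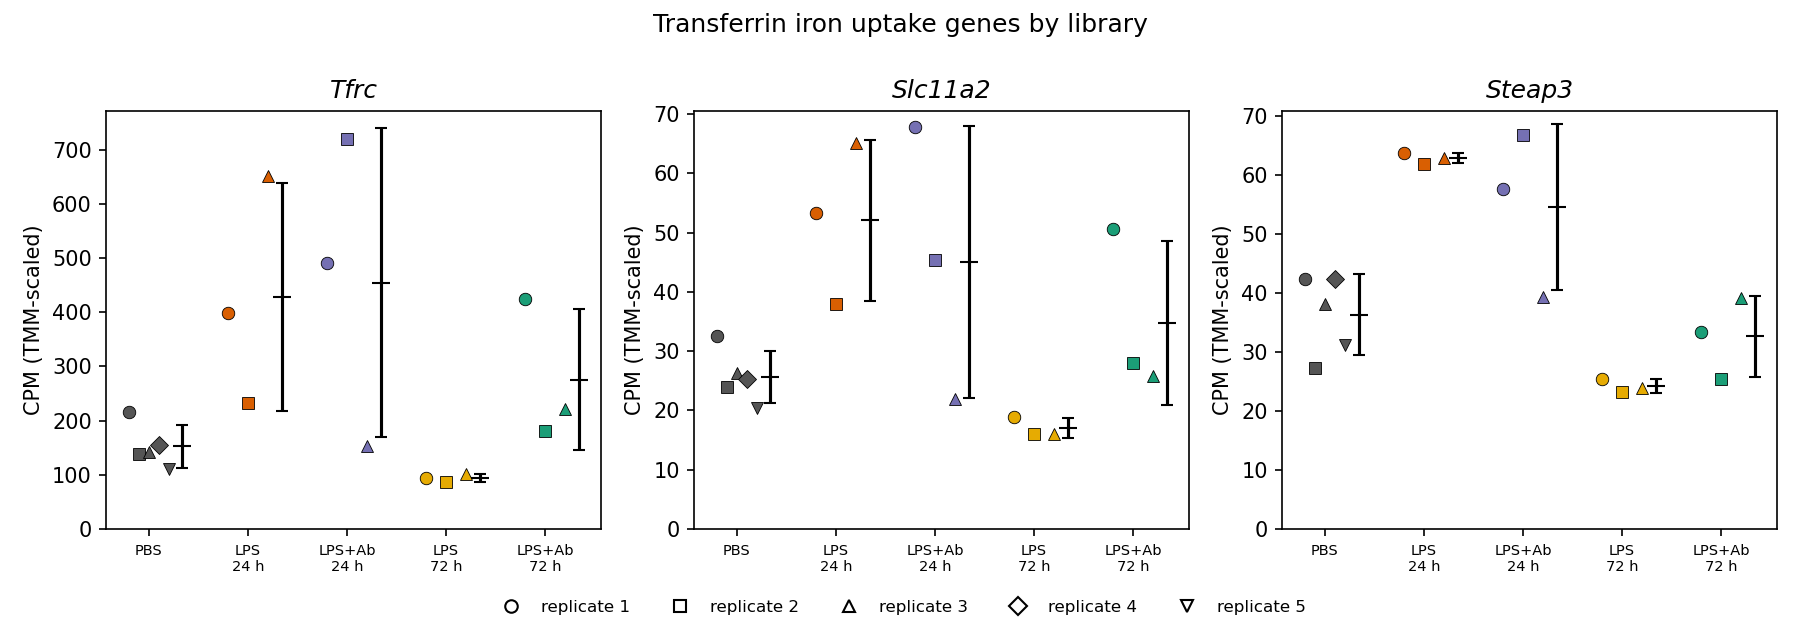
CPM (TMM-scaled, vertical axes from 0) of Tfrc, Slc11a2 and Steap3 in each of 17 libraries by group, with marker shape for the replicate number and bars for the group mean and SD. With LPS at 24 h every library of the 3 genes lies above PBS, with LPS at 72 h every library lies below it, and the antibody groups (LPS+Ab) are spread, with Tfrc from 154 to 719 CPM at 24 h. Tfrc was chosen on its values with LPS alone, and the share of all genes that lie apart from PBS in this way was not counted.

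With the antibody, the partners of the receptor were also spread. At 24 h Slc11a2 was at 67.8, 45.3 and 21.9 CPM, so library 3 lay inside the PBS range, and its log2 change from PBS was 0.81 (SE 0.293, adjusted p = 0.0561, edgeR). Without that library 3 it was 1.17 and was called (adjusted p = 0.00976), as it was without PBS library 1 (0.93, adjusted p = 0.0465). Steap3 was at 57.7, 66.8 and 39.3 CPM and was called at a log2 change of 0.59 (SE 0.179, adjusted p = 0.0287). That call was lost without any 1 of antibody libraries 1 and 2 or PBS libraries 2 and 5, with an adjusted p of 0.167 without antibody library 2. At 72 h Slc11a2 was at 50.6, 27.9 and 25.7 CPM and Steap3 at 33.4, 25.4 and 39.2 CPM. Neither was called against PBS, at log2 changes of 0.43 (adjusted p = 0.330) and -0.15 (adjusted p = 0.602).

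Against LPS alone at 72 h, all 3 Slc11a2 libraries with antibody were higher, at a log2 difference of 1.03 (SE 0.341, adjusted p = 0.0533, edgeR). It passed the test without antibody library 2 (1.21, adjusted p = 0.0475) or library 3 (1.20, adjusted p = 0.0448). Steap3 differed by 0.43 (SE 0.206, adjusted p = 0.158), with library 2 inside the range of LPS alone. The antibody effect at 72 h minus that at 24 h was 1.24 for Slc11a2 (SE 0.475, adjusted p = 0.123) and 0.64 for Steap3 (SE 0.289, adjusted p = 0.192), neither of which passed the test. For Tfrc that difference was 1.46, with no test. With the antibody, the highest Steap3 library at 72 h (39.2 CPM) lay just under the lowest at 24 h (39.3 CPM). The log2 difference of -0.74 (SE 0.205) had an unadjusted p of 0.00242 and an adjusted p of 0.918, so it was not called.

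Erythroid precursors carry much transferrin receptor, so 26 erythroid markers, which hold no member, were read beside these genes. Their summed level was 829 to 1290 CPM in PBS, 979 to 1790 with LPS at 24 h, 391 to 4082 with LPS plus antibody at 24 h, 297 to 808 with LPS at 72 h and 257 to 2426 with LPS plus antibody at 72 h. Of the 26, 0 were called higher and 1, the globin Hbb-bt, was called lower with LPS at 24 h, and 0 were called with the antibody at 24 h. Of all genes tested, 37.6% and 24.2% were called in these comparisons. None was at a count of 0 in PBS or with LPS at 24 h, whereas 8 were at 0 in LPS 72 h library 3, 8 in LPS plus antibody 72 h library 3 and 5 in LPS plus antibody 24 h library 3. Gata1, an erythroid transcription factor, averaged 17.5 ± 6.93 CPM in PBS (SD, n = 5). After LPS it averaged 50.0 ± 17.1 CPM at 24 h and 9.44 ± 8.38 CPM at 72 h (SD over 3 libraries each). Gata1 was named as a check and was not called in either comparison. The median log2 change of the 26 from PBS was 0.59 with LPS at 24 h and -2.33 with LPS at 72 h, where 0 were called.

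Slc11a2 tracked these markers most closely. With the antibody at 24 h its 67.8, 45.3 and 21.9 CPM stood beside erythroid sums of 4082, 1106 and 391 CPM in libraries 1, 2 and 3, and with the antibody at 72 h its 50.6, 27.9 and 25.7 CPM stood beside 2426, 622 and 257. The highest Tfrc library, LPS plus antibody 24 h library 2 at 719 CPM, had an erythroid sum of 1106 CPM, inside the PBS range. Library 3 of the antibody group at 72 h had the lowest erythroid sum of all and Tfrc at 222 CPM, above every PBS library. In LPS 24 h library 2 the erythroid sum of 979 CPM was inside the PBS range, while Tfrc (233 CPM), Slc11a2 (38.0 CPM) and Steap3 (61.9 CPM) were above every PBS library. The part of erythroid cells in the changes of the 3 genes was not tested.

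Over the 17 libraries the Pearson correlation of log2 CPM with the mean of the erythroid markers was 0.74 for Slc11a2 (Spearman 0.80), 0.57 for Tfrc (Spearman 0.64) and 0.53 for Steap3 (Spearman 0.60). Over deviations from the group means it was 0.88, 0.64 and 0.31. With the mean of the 10 HSPC markers, of which 7 of 10 fell with LPS at 24 h, it was -0.56, -0.66 and -0.61 over the 17 libraries and -0.07, -0.28 and -0.45 over deviations. The part of a shift in the sorted cells in these values was not tested. These are descriptions over libraries that share groups and scaling. Among themselves, Tfrc and Slc11a2 correlated at 0.94 (Spearman 0.94), at 0.87 over deviations from the group means and at 0.97 over the 15 libraries left without the 2 farthest from the Tfrc median. Of 14919 other genes, Slc11a2 ranked 8th in likeness to Tfrc by this measure and Steap3 ranked 532nd, at 0.81 and 0.65 over deviations.

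The non-member genes most like Tfrc were Sppl2b (0.96), Ccdc137 (0.96), Slc25a22 (0.96), Aen (0.95), Ncdn (0.95), Qsox2 (0.95), Fastk (0.94), Myc (0.94), Slc16a6 (0.93) and Ccng1 (0.93), by Pearson correlation over 17 libraries. Over deviations from the group means their correlations with Tfrc ran from 0.82 (Ccng1) to 0.93 (Aen). Myc encodes a transcription factor of growth and ribosome production, and Slc25a22 a mitochondrial glutamate carrier. Among erythroid genes, Gata1 correlated with Tfrc at 0.72, the erythropoietin receptor Epor at 0.69 and the transcription factor Klf1 at 0.68, and at 0.61, 0.67 and 0.64 over deviations. These were named as checks and lie above the mean of all the erythroid markers over the 17 libraries, at 0.57 (0.64 over deviations). The other erythroid markers were not set against Tfrc singly.

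**Figure D2:**
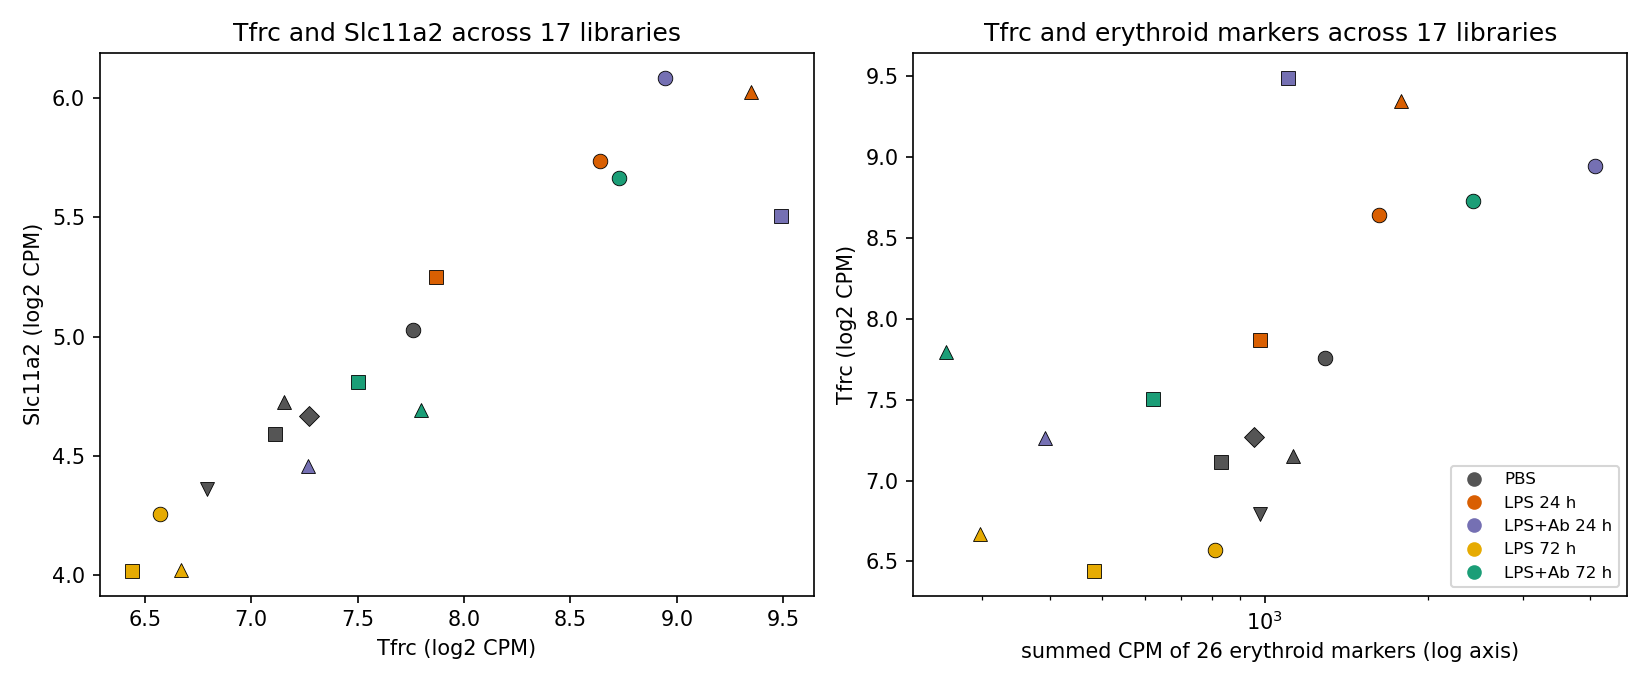
Each point is 1 of 17 libraries, coloured by group and shaped by replicate number as in the plot of uptake genes; the left panel sets log2 CPM of Slc11a2 against Tfrc, the right panel sets log2 CPM of Tfrc against the summed CPM of 26 erythroid markers on a log axis. Tfrc and Slc11a2 lie near 1 line (r = 0.94), and in the right panel the library highest in Tfrc sits at an erythroid sum of 1106 CPM, within the PBS range of 829 to 1290.

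The ferritin chains and their lysosomal receptor were called by edgeR in none of the comparisons. Fth1, the heavy chain that oxidises iron, was at 782, 1169, 616, 733 and 787 CPM in PBS. It was at 1593, 741 and 729 CPM with LPS at 24 h, at 1395, 728 and 854 CPM with LPS plus antibody at 24 h, at 1049, 992 and 589 CPM with LPS at 72 h and at 1125, 702 and 778 CPM with LPS plus antibody at 72 h. Library 1 was the highest of each group given LPS, and every group overlapped PBS. Its log2 changes from PBS ran from 0.09 with LPS plus antibody at 72 h (SE 0.303) to 0.32 with LPS at 24 h (SE 0.301, adjusted p = 0.423, edgeR). Without LPS 24 h library 1 the latter was -0.14 (adjusted p = 0.764), so its sign rested on that library.

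Ftl1, the light chain that aids mineral formation, was at 1180, 2315, 995, 1201 and 1043 CPM in PBS, so library 2 stood apart from the other 4. It was at 2579, 965 and 783 CPM with LPS at 24 h, at 1517, 1050 and 1319 CPM with LPS plus antibody at 24 h, at 1251, 1381 and 906 CPM with LPS at 72 h and at 990, 1125 and 1178 CPM with LPS plus antibody at 72 h. Its log2 changes from PBS ran from -0.29 (LPS plus antibody at 72 h, SE 0.347) to 0.10 (LPS at 24 h, SE 0.342). The highest Fth1 and Ftl1 values of all came from LPS 24 h library 1, the library with the outlying TMM factor, and without it the Ftl1 change at 24 h was -0.61 (adjusted p = 0.146). Without PBS library 2 it was 0.38 (adjusted p = 0.362), and the changes with LPS plus antibody at 24 h and with LPS at 72 h turned from -0.06 to 0.23 and from -0.19 to 0.09, none of them called. With SEs of 0.30 to 0.35, these libraries do not show that ferritin messages stayed level.

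PBS library 2 was also high in markers of resident macrophages, cells of the marrow that store and export iron. The sum of 18 such markers was 5270 CPM there and 760 to 1867 CPM in the other PBS libraries. It was 272 to 310 CPM with LPS at 24 h, 339 to 541 with LPS plus antibody at 24 h, 574 to 956 with LPS at 72 h and 315 to 792 with LPS plus antibody at 72 h. With LPS at 24 h 17 of the 18 were called lower and 0 higher, where 37.6% of all genes tested were called. The sum with LPS at 72 h does not follow the typical marker. The median log2 change of the 18 from PBS was -3.81 with LPS at 24 h and -4.83 with LPS at 72 h, where 0 were called. Csf1r, 1 of the 18, alone averaged 228 CPM with LPS at 72 h and 154 CPM in PBS. The part of macrophages in the ferritin values was not tested.

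The chains moved together more than apart. Fth1 and Ftl1 correlated at 0.78 over the 17 libraries (Spearman 0.72), at 0.82 over deviations from the group means and at 0.64 without the 2 libraries farthest from the Fth1 median. Per kilobase, Ftl1 exceeded Fth1 in every library, by 1.36-fold (LPS plus antibody 72 h library 1) to 3.06-fold (PBS library 2). Ferritin genes have processed copies with near-identical sequence, and how reads that match several places were counted is not given in the sources used here. The copy Ftl1-ps1 held 80 to 177 counts a library, 0.564% to 0.937% of the Ftl1 count, so both ferritin levels are uncertain to an extent the table does not show.

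Ncoa4, the receptor that takes ferritin to lysosomes, was at 183, 197, 192, 191 and 170 CPM in PBS. With LPS at 24 h it was at 117, 182 and 166 CPM, with LPS plus antibody at 24 h at 147, 172 and 211 CPM, with LPS at 72 h at 171, 178 and 207 CPM and with LPS plus antibody at 72 h at 136, 283 and 197 CPM. Library 1 was the lowest of each of these 4 groups, the reverse of Fth1, and every group overlapped PBS. Its greatest log2 change from PBS was -0.27, with LPS at 24 h (SE 0.197, adjusted p = 0.303, edgeR). Against LPS alone at 72 h it was called higher with the antibody only by voom in limma (0.47, adjusted p = 0.0331), and without antibody 72 h library 2 that edgeR difference was -0.11. It was the member most opposed to Tfrc, at a correlation of -0.48 (Spearman -0.42).

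**Figure D3:**
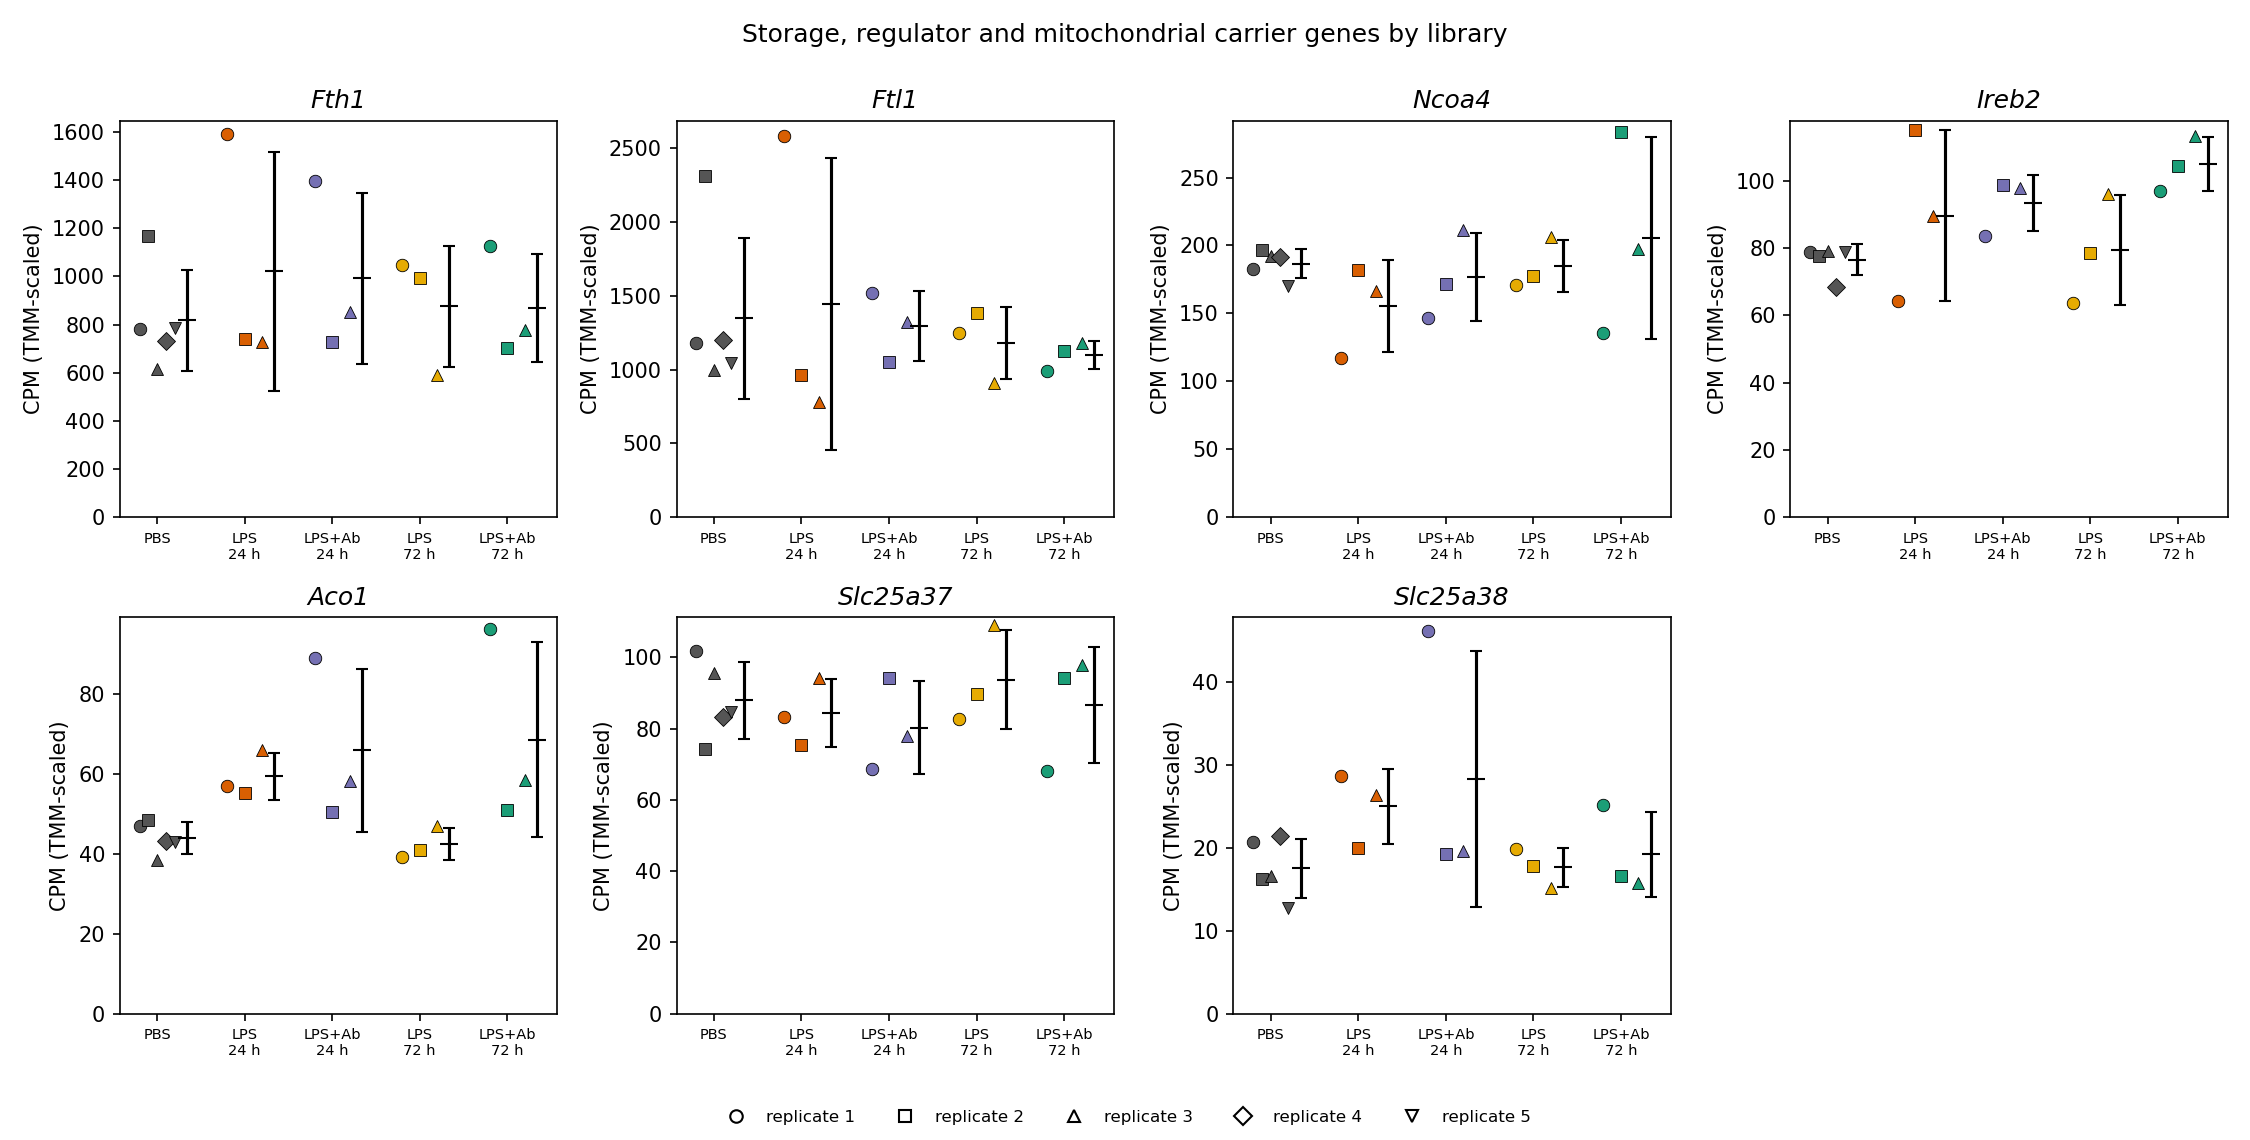
CPM (TMM-scaled, vertical axes from 0) of the storage genes Fth1, Ftl1 and Ncoa4, the regulators Ireb2 and Aco1 and the mitochondrial carriers Slc25a37 and Slc25a38 in each of 17 libraries by group, with marker shape for the replicate number and bars for the group mean and SD. Fth1, Ftl1, Ncoa4 and Slc25a37 overlap PBS in every group, PBS library 2 stands at 2315 CPM for Ftl1, and Aco1 in the antibody groups reaches 89.1 and 96.3 CPM in library 1.

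Of the 2 regulators that bind IREs, Aco1 was the one called. It was at 46.9, 48.4, 38.3, 43.1 and 42.8 CPM in PBS and at 39.1, 41.0 and 46.8 CPM with LPS at 72 h. It was at 56.9, 55.1 and 66.0 CPM with LPS at 24 h, at 89.1, 50.4 and 58.2 CPM with LPS plus antibody at 24 h and at 96.3, 50.8 and 58.4 CPM with LPS plus antibody at 72 h. Every library of the last 3 groups was above every PBS library. The log2 change from PBS was 0.43 with LPS at 24 h, which was not called (SE 0.197, adjusted p = 0.0939, edgeR). It was 0.59 with LPS plus antibody at 24 h (SE 0.196, adjusted p = 0.0411) and 0.64 with LPS plus antibody at 72 h (SE 0.196, adjusted p = 0.0427), both called.

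At 72 h Aco1 was also higher with the antibody than with LPS alone, by 0.69 on the log2 scale (SE 0.224, adjusted p = 0.0477), with no overlap between the groups. These calls were close to the threshold and leaned on library 1, which held the highest Aco1 of each antibody group and the highest erythroid sum. Without it, the change from PBS was 0.31 at 24 h (adjusted p = 0.263) and 0.34 at 72 h (adjusted p = 0.231), and the antibody effect at 72 h was 0.41 (adjusted p = 0.204). The call at 24 h was also lost without PBS library 2, 3, 4 or 5, that at 72 h without the same PBS libraries or antibody library 3, and the antibody effect without LPS 72 h library 1, 2 or 3. Over all alternatives, 7 of 15, 5 of 15 and 4 of 13 kept these calls. Aco1 correlated with the erythroid markers at 0.34 (0.50 over deviations from the group means), and the part of erythroid cells in its values was not tested.

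Ireb2, the regulator that is degraded when iron is plentiful, was at 79.0, 77.5, 79.1, 68.5 and 78.8 CPM in PBS. With the antibody it was at 83.7, 98.6 and 97.7 CPM at 24 h and at 97.0, 104 and 113 CPM at 72 h, above every PBS library in both groups. The log2 changes from PBS were 0.29 (SE 0.159, adjusted p = 0.20, edgeR) and 0.45 (SE 0.159, adjusted p = 0.0660), which did not pass the test. With LPS alone it was at 64.2, 115 and 89.6 CPM at 24 h and at 63.6, 78.5 and 96.2 CPM at 72 h, groups that spanned the PBS range on both sides. Its change with LPS at 24 h was 0.23 (adjusted p = 0.275), and without LPS 24 h library 1 it was 0.43 and was called (adjusted p = 0.0446). Against LPS alone at 72 h it was 0.40 higher with the antibody (adjusted p = 0.135), and without LPS 72 h library 3 that was 0.60 and was called (adjusted p = 0.0494). Library 1 was the lowest of each group given LPS.

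The mitochondrial carriers did not pass edgeR's test in any comparison over all libraries. Slc25a37, mitoferrin 1, was at 102, 74.3, 95.7, 83.4 and 84.7 CPM in PBS and ran from 68.0 to 109 CPM over all libraries, with log2 changes from PBS between -0.13 and 0.09. Slc25a38, a mitochondrial glycine carrier needed for heme synthesis, was at 20.7, 16.2, 16.6, 21.4 and 12.8 CPM in PBS. It was at 28.6, 20.0 and 26.3 CPM with LPS at 24 h and at 46.1, 19.2 and 19.6 CPM with LPS plus antibody at 24 h, where library 1, the library with the erythroid sum of 4082 CPM, stood far above the others. Its log2 changes were 0.51 (SE 0.270, adjusted p = 0.149) and 0.69 (SE 0.269, adjusted p = 0.0715). The latter was called without antibody 24 h library 3 (0.93, adjusted p = 0.0349) and by DESeq2 (adjusted p = 0.0489). Slc25a38 correlated with the erythroid markers at 0.61 (Spearman 0.75), and at 0.74 over deviations from the group means.

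Counted over the members, LPS at 24 h against PBS called 2 of 9 tested, Slc11a2 and Steap3, both higher, while 37.6% of all genes tested were called. That share is below the background of this comparison. In this comparison same-numbered libraries met the rule for pairing given under the processing of the data, though the sample titles state no pairing. With the number as a block the same 2 members were called (background 27.9%). Without LPS 24 h library 1, 3 of 9 were called, the addition being Ireb2, a share above the background of 22% there. Without library 3, 1 of 9 was called (background 31.2%). LPS at 72 h against PBS called 0 of 9 (background 0.0201%), where edgeR gave 1 member, Steap3, an unadjusted p below 0.05 and DESeq2 called 0. LPS plus antibody against PBS called 3 of 10 at 24 h, Tfrc, Steap3 and Aco1, all higher (background 24.2%), and 1 of 10 at 72 h, Aco1 (background 13.2%). The shares at 24 h and 72 h are near their backgrounds.

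The antibody effect at 24 h called 0 of 9 members (background 0%). No member had an unadjusted p below 0.05 by edgeR there, DESeq2 called 0 members, and 273 of all genes had such an unadjusted p. At 72 h the antibody effect called 1 of 9, Aco1 (background 15.1%). With the antibody, 72 h against 24 h called 0 of 10 (background 0%). There, 1 member (Steap3) and 635 of all genes had an unadjusted p below 0.05 by edgeR, and DESeq2 called 0 members. The difference between the antibody effects at 72 h and 24 h called 0 of 9 (background 6.35%), with 2 members, Slc11a2 and Steap3, at an unadjusted p below 0.05 and 0 called by DESeq2. The median log2 change of the tested members was 0.32 with LPS at 24 h and 0.44 with LPS plus antibody at 24 h, beside -0.03 and -0.001 over all genes.

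**Figure D4:**
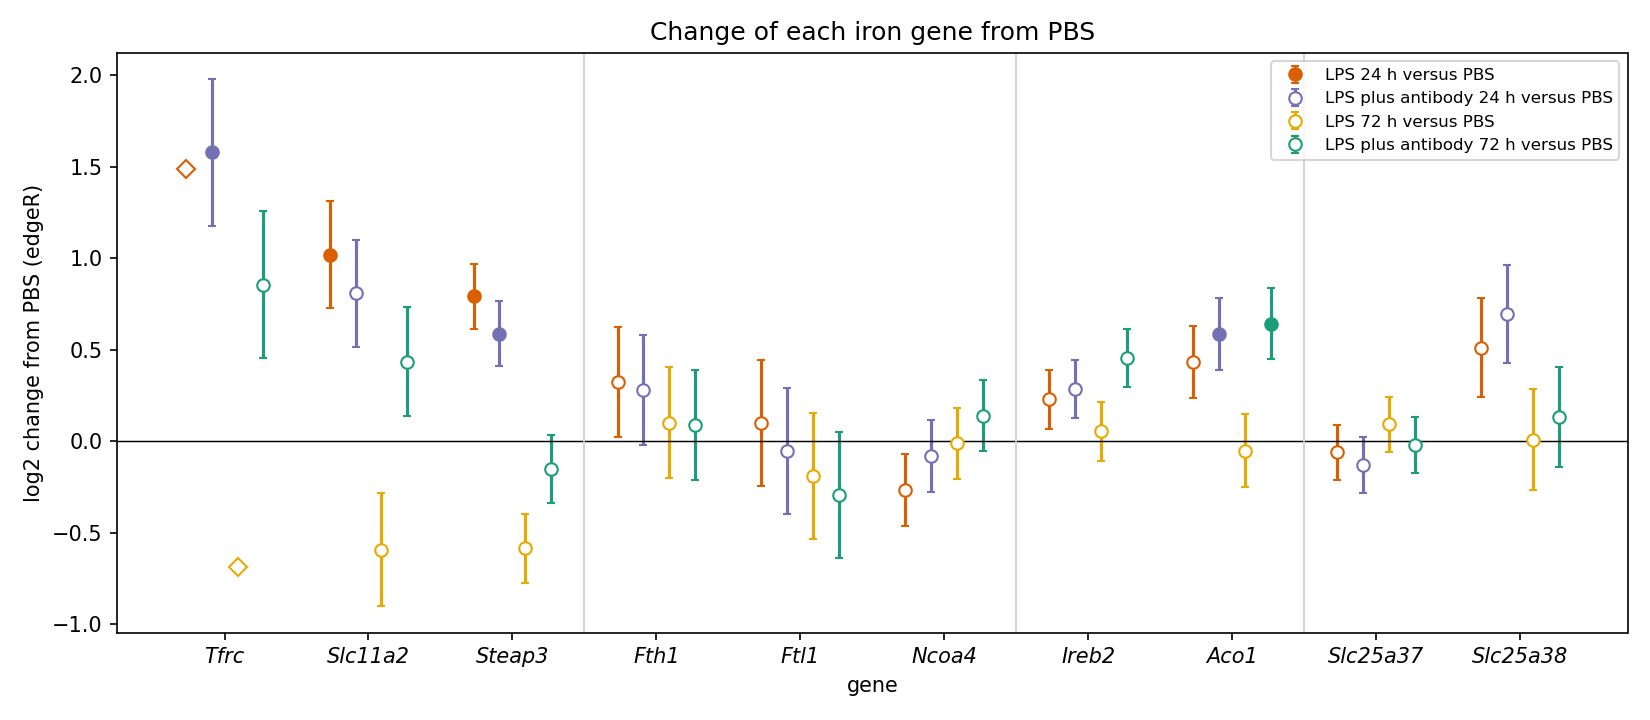
Log2 change from PBS of the 10 genes, by edgeR, with bars of 1 SE; filled circles passed an adjusted p of 0.05, open circles did not, and open diamonds are Tfrc values that chose the gene and have no test. The uptake genes at the left lie at 0.59 or more above PBS at 24 h and below it with LPS at 72 h, the storage genes in the middle lie within 0.32 of PBS, and Aco1 is filled in both antibody groups.

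Other genes of the pathway were taken from lists that hold no member. Of 17 further iron uptake genes 12 were tested, and with LPS at 24 h 1 was called higher and 3 lower, a share no greater than the 37.6% called among all genes. The metal carrier Slc39a8 was higher, at a log2 change of 0.48 (adjusted p = 0.0368). Transferrin itself, Trf, was lower at -1.92 (adjusted p = 0.00160), as were the heme-hemopexin receptor Lrp1 at -2.58 (adjusted p = 0.00313) and the haptoglobin-hemoglobin receptor Cd163 at -3.51 (adjusted p = 0.00114). The same 4 genes were called in the same directions with LPS plus antibody at 24 h, a comparison with the same PBS libraries, and Trf and Cd163 were called lower with the antibody at 72 h. Without PBS library 2 or with upper-quartile factors Slc39a8 was not called at 24 h, and without that library Lrp1 with the antibody at 24 h and Cd163 with it at 72 h were not called. Cd163 is also one of the 18 macrophage markers. The paralog Tfr2, a sensor of transferrin iron, was not called, at 49.8 ± 11.9 CPM (SD, n = 5) in PBS and 70.0 ± 8.94 (SD, n = 3) with LPS at 24 h.

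Of 12 further genes of storage and export 8 were tested. Among them 3 were called higher and 1 lower with LPS at 24 h, where 37.6% of all genes tested were called. With LPS at 24 h the heme exporter Flvcr1 (log2 change 0.72, adjusted p = 0.00956) and the iron chaperones Pcbp1 (0.61, adjusted p = 0.00849) and Pcbp2 (0.34, adjusted p = 0.0230) were called higher. The iron exporter ferroportin, Slc40a1, was called lower at -3.15 (adjusted p = 0.0111). Its mean was 184 ± 200 CPM (SD, n = 5) in PBS, with a highest library of 536 CPM, and 20.7 ± 7.63 (SD, n = 3) with LPS at 24 h. Slc40a1 is one of the 18 macrophage markers as well, and the part of macrophages in its change was not tested. It was called lower too without PBS library 2, its highest. Without LPS 24 h library 1, 1 gene of this list (Flvcr1) was called higher and 1 (Slc40a1) lower, so the Pcbp1 and Pcbp2 calls with LPS alone were lost without that library. Pcbp2 was also called higher with LPS plus antibody at 24 h (0.33, adjusted p = 0.0389). Flvcr1 was called higher with the antibody too, at 24 h (0.75, adjusted p = 0.0155) and at 72 h (0.71, adjusted p = 0.0300), and against LPS alone at 72 h (0.90, adjusted p = 0.0156). Its call against PBS at 72 h was lost without PBS library 2 and with upper-quartile factors.

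Of 18 further regulators 13 were tested. With LPS at 24 h 0 were called higher and 5 lower, near the background of 37.6%, among them the RNA-decay factor Zfp36 (-1.83, adjusted p = 0.000892), the repressor Bach2 (-1.82, adjusted p = 0.00206) and the RNase Zc3h12a (-0.66, adjusted p = 0.00910). Without LPS 24 h library 1 only Zfp36 and Bach2 of the list were called, both lower. With LPS plus antibody at 72 h 2 were called higher and 2 lower, where 13.2% of all genes tested were called. The hypoxia factor Hif1a was higher there at 0.73 (adjusted p = 0.0130), and was also higher than with LPS alone at 72 h by 0.98 (adjusted p = 0.00409). In heme turnover, the heme-degrading enzyme Hmox1 was called lower with LPS at 24 h (-3.68, adjusted p = 0.00952), and it is also one of the 18 macrophage markers.

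Of the pathway's lists, that of mitochondrial iron use held the most genes called higher with LPS at 24 h. Of 19 genes for iron-sulfur clusters and mitochondrial iron, all tested and neither carrier among them, 11 were called higher and 0 lower with LPS at 24 h, 7 and 0 with LPS plus antibody at 24 h, and 2 and 0 with LPS plus antibody at 72 h. Of all genes tested, 19.1%, 11.7% and 6.81% were called higher in these comparisons. With LPS at 72 h edgeR called 0 of the 19. Without LPS 24 h library 1 the count with LPS at 24 h was 5, Nfs1, Hspa9, Glrx5, Bola3 and Sfxn1, and, as the spread is shared over all libraries, that with LPS plus antibody at 24 h was 12. Without PBS library 2 the counts were 9 and 5. With upper-quartile scaling factors they were 6 and 4 higher with 0 lower, and with LPS plus antibody at 72 h 2 were higher and 1 lower. Their median log2 change was 0.41, 0.39, 0.18 and 0.05 in these comparisons. The greatest increases with LPS at 24 h were those of the glutaredoxin Glrx5 (1.33, adjusted p = 0.00440), the chaperone Hspa9 (1.07, adjusted p = 0.000314) and the cluster assembly factor Bola3 (0.90, adjusted p = 0.00264).

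The sum of the 19 genes was 1068 to 1295 CPM in PBS and 1037 to 1227 with LPS at 72 h. It was 1804 to 2264 with LPS at 24 h, 1733 to 1883 with LPS plus antibody at 24 h and 1602 to 1829 with LPS plus antibody at 72 h, so these 3 groups lay wholly above PBS. The erythroid sum at 24 h with the antibody ran from 391 to 4082 CPM over the same libraries, and the part of other cells in these values was not tested. With LPS plus antibody at 72 h 2 of the 19 were called higher and their median log2 change was 0.18, so the sum does not show that most of them rose. Hspa9, 1 of the 19, made up a large part of the sums. Hspa9 averaged 444 ± 48.6 CPM in PBS (SD, n = 5). It averaged 931 ± 146 CPM after LPS at 24 h, 396 ± 31.1 CPM after LPS at 72 h and 818 ± 80.9 CPM at 72 h with the antibody (SD over 3 libraries each). Its antibody effect was greater at 72 h than at 24 h by 1.30 on the log2 scale (SE 0.201, adjusted p = 0.00831, edgeR), the difference that Slc11a2 and Steap3 did not pass. Hspa9 was the only 1 of the 19 called for that difference, where 6.35% of all genes were called. Against LPS alone at 72 h, 3 of the 19 were called higher with the antibody and 1 lower, Hscb at -0.74 (adjusted p = 0.0101, edgeR). Of all genes 15.1% were called there.

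**Figure D5:**
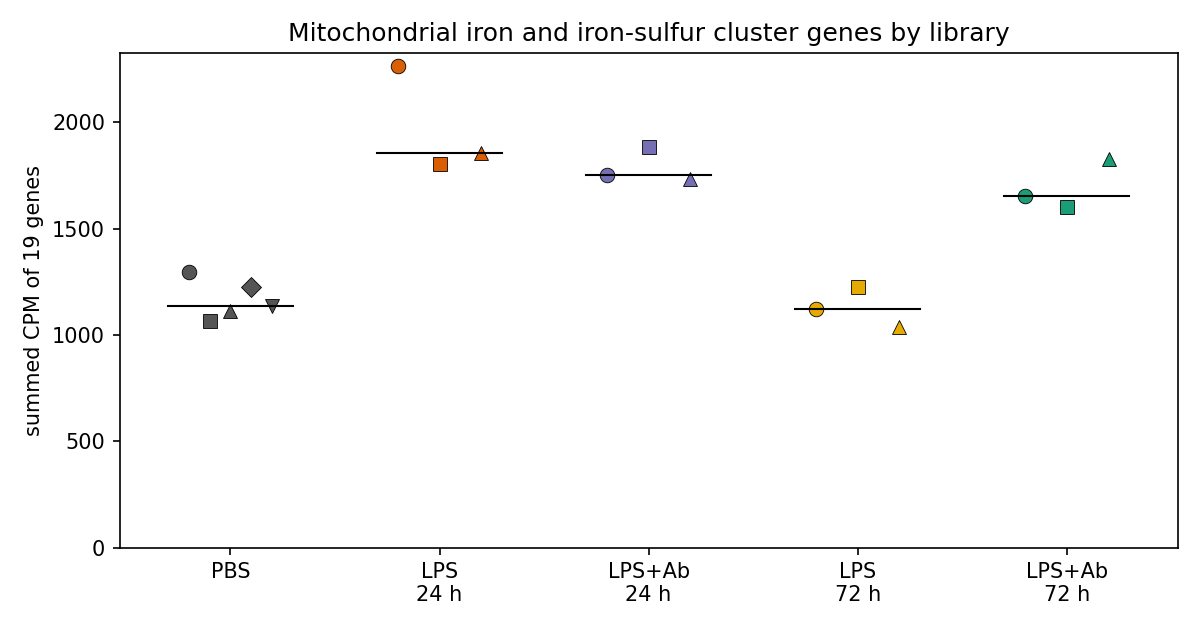
Summed CPM (vertical axis from 0) of 19 genes of iron-sulfur cluster assembly and mitochondrial iron in each of 17 libraries by group, with lines at the group medians and marker shape for the replicate number. LPS at 24 h and both antibody groups lie at 1602 to 2264 CPM, above the PBS libraries at 1068 to 1295, and LPS at 72 h lies at 1037 to 1227. Hspa9, 1 of the 19, makes up a large part of the sums, at a mean of 444 CPM in PBS and 818 CPM with LPS plus antibody at 72 h.

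Of 18 genes of DNA replication and cell division, processes that consume iron through ribonucleotide reductase, 8 were called higher and 0 lower with LPS at 24 h (4 and 0 without LPS 24 h library 1, 4 and 1 with upper-quartile factors). Of all genes tested 37.6% were called and 19.1% called higher, and without that library 22% were called. The reductase subunit Rrm2, an iron enzyme, was called at 1.06 (adjusted p = 0.00408), from 165 to 343 CPM in the mean. It was also called with LPS plus antibody at 24 h (1.00, adjusted p = 0.0119) and at 72 h (0.82, adjusted p = 0.0390), the latter call being lost without PBS library 2 and with upper-quartile factors. Over deviations from the group means, the correlation with the mean of these genes was -0.70 for Slc11a2, -0.55 for Tfrc and 0.01 for Steap3, and over the 17 libraries as they stand it was 0.03, 0.12 and 0.34. The part of cell division in the uptake genes' changes was not tested.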

How the data were processed

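The deposited table holds raw read counts for 35321 gene symbols in 17 libraries. Per the submitters' processing notes, the tools were HISAT2 2.2.0, Subread, featureCounts 2.1.1, R 4.3.2 and DESeq2, on build GRCm38. The annotation, the strand setting and the handling of reads that match several places are not given in the sources used here, so overlapping genes and near-identical copies may share counts. Groups and library numbers came from the sample titles, and 0 columns were left unmatched.

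The analysis used edgeR 4.0.16 (R 4.3.3). Its filterByExpr (minimum count 10, minimum total 15) left 14920 genes with 99.9% of the counts, TMM factors scaled the libraries, and 1 quasi-likelihood fit, with a mean for each of the 5 groups, held all libraries. P-values were adjusted by Benjamini-Hochberg over all genes tested, and an adjusted p below 0.05 was called. The spread between libraries, not counting error, sets the precision at 10516722 to 16006001 counts a library. Log2 CPM used a prior count of 2. CPM per kilobase used the principal transcript of GENCODE on GRCm38, from which the sites in untranslated regions were also read. Members and gene lists were chosen with earlier results of these data known. Named genes are all members, at most the 3 called genes with the greatest change in each direction of a list, and the 10 genes most correlated with Tfrc. Tfrc was not tested where libraries with LPS alone enter. Genes named outside this rule (Gata1, Epor, Klf1, Kit, Cd34, Ly6a, Tfr2, Ftl1-ps1) serve as checks.

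Same-numbered libraries were taken as paired where every pair's deviations from the group means correlated above 0.1. Over 24 pairs the correlations ran from -0.365 to 0.723, and only LPS at 24 h against PBS met the rule (0.191, 0.188 and 0.158). With the antibody, 72 h against 24 h gave 0.723 and 0.697 for libraries 1 and 3 but -0.022 for library 2. The sample titles state no pairing, libraries of unlike number were not correlated as a baseline, and the main fit used no pairing. Alternatives were other scaling factors, no filter, DESeq2 1.42.0, voom in limma 3.58.1, a fit of the compared groups, the replicate block and leaving out each library. Counts of the gene lists without LPS 24 h library 1 or PBS library 2, and with other scaling factors, were added after seeing the data. The script was tested on simulated data. A result of the heme list is not reported here.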

Additional observations from a re-analysis of the deposited data

Results flagged for a closer look

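In the PBS group, 2 members had a library far from the other 4 by Dixon's criterion (the gap to the nearest library as a share of the range, with a limit of 0.71 for 5 libraries), which chance meets in about 1 in 20 groups. PBS library 2 was at 2315 CPM for Ftl1, a gap of 0.844 of the range. PBS library 4 was at 68.5 CPM for Ireb2, a gap of 0.85 of the range.

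The change of Aco1 from PBS at 72 h differed between LPS alone and LPS with antibody by 0.69 on the log2 scale and passed the test (adjusted p = 0.0477, edgeR; kept in 4 of 13 alternatives), with all 3 antibody libraries above all 3 libraries of LPS alone. For Tfrc every library with LPS alone lay below the PBS mean and every antibody library above it, a log2 difference of 1.55 that was not tested, since the libraries with LPS alone chose the gene.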

How the results depend on the processing

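Steap3 with LPS at 24 h was called in all 15 alternatives, Slc11a2 with LPS at 24 h in 14 of 15 and Tfrc with LPS plus antibody at 24 h in 13 of 15. Of 1096 recomputed values, over 75 values of single members, 930 kept direction and side of the threshold, 36 lost a call, 22 gained one and 108 changed sign, 0 of them among the 7 called values. The cause of these changes was not tested.

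Member counts in order are for LPS plus antibody at 24 h, for it at 72 h and for the antibody effect at 72 h. In the report they were 3, 1 and 1, beside 24.2%, 13.2% and 15.1% of all genes called. With upper-quartile factors they were 1, 0 and 0 (all genes 23.1%, 13.5% and 15.3%). By DESeq2 they were 5, 2 and 2 (all genes 28.4%, 19.6% and 20.3%). With the replicate block they were 0, 0 and 0 (all genes 11.5%, 2.51% and 11.9%), where Tfrc at 24 h was 1.49 (adjusted p = 0.0724). DESeq2 size factors, no filter and a fit of the compared groups gave 0 for the antibody effect at 72 h. Of all genes they called 14.7%, 8.15% and 8.11% there. Voom called 5 with LPS at 24 h, 1 with LPS at 72 h and 4 for the antibody effect at 72 h. Of all genes it called 45.8%, 14.5% and 29.7%. Leaving out 1 library gave 1 to 3 with LPS at 24 h, 1 to 5 and 0 to 1 with the antibody at 24 h and 72 h and 0 to 2 for its effect at 72 h. In that order, the share of all genes called ran from 22% to 36.6%, 5.73% to 23%, 3.82% to 13.5% and 5.02% to 14.9%.

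Ftl1 with LPS at 24 h was -0.058 with upper-quartile factors, -0.11 with the block, -0.44 by voom and ran from -0.61 to 0.40 without 1 library. Fth1 there ran from -0.14 to 0.52. Ftl1 with LPS at 72 h was 0.064 by voom and ran from -0.32 to 0.094, and with LPS plus antibody at 24 h from -0.18 to 0.23. Fth1 with LPS plus antibody at 72 h was -0.014 with upper-quartile factors, -0.0071 with the block, -0.039 by voom and ran from -0.12 to 0.25. Steap3 there ran from -0.31 to 0.024, Slc25a37 with LPS at 72 h from -0.042 to 0.18 and the antibody effect on Ncoa4 at 72 h from -0.11 to 0.42.

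Upper-quartile factors moved the median of all genes from -0.03 to -0.16 with LPS at 24 h and from -0.001 to -0.11 with LPS plus antibody at 24 h. They moved the share of called genes that were higher from 50.7% to 36.8% and from 48.3% to 32.5%, with the antibody at 72 h from 51.4% to 32.8%, for its effect at 72 h from 57.1% to 42.4% and for the difference of antibody effects from 63.5% to 49.7%. LPS at 72 h against PBS called 3 genes by edgeR, 178 by DESeq2, 2170 by voom and 99 in a fit of these groups alone. The block took the genes called with LPS plus antibody from 3605 to 1721 at 24 h and from 1975 to 374 at 72 h.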
